A study of Bos taurus with 11 samples.

Results

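Nucleoside transporters carry adenosine, uridine and the other building blocks of nucleic acids across cell membranes, and 7 gene symbols of this group, SLC28A1 to SLC28A3 and SLC29A1 to SLC29A4, were looked up in mammary tissue of heifers. Lines with one of these symbols were found for 6 of the 7 among 16279 genes, and SLC28A2 is not analysed here. SLC28A3 was chosen by its normalised counts, which had been seen to differ widely between regions of the gland, so its regional values are a description and carry no test. The other members were taken as its relatives by name.

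All samples came from untreated Holstein heifers of 10 to 12 months, and RNA was sequenced after poly A selection. Parenchyma, where the ducts lie, and far stroma were each sampled in heifers 1, 3, 4 and 5 (n = 4 each), and close stroma in heifers 3, 4 and 5 (n = 3). The 11 samples thus came from 4 animals, and the labels give no distance between the regions. In the deposited table, the column of the close stroma of heifer 4 ends in a letter that the labels do not explain, and for each transporter its value is given singly.

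The SLC28 family consists of concentrative transporters, which use the sodium gradient to pull nucleosides into the cell, as worked out mainly in human and rodent cells. The SLC29 family consists of equilibrative transporters, which let nucleosides pass down their own gradient in either direction. Together they supply the salvage pathway, by which cells reuse nucleosides instead of making nucleotides anew, and they set how long adenosine stays at its receptors outside the cell. Epithelia often carry concentrative transporters on one face and equilibrative ones on the other.

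The recovered reads, that is the whole read counts behind the deposited values, totalled 7274474 to 11156909 per sample, and 1 read was worth 0.754 to 1.61 normalised counts. Summed normalised counts of 16 luminal epithelium genes were 46219 to 62276 in parenchyma, 22635 to 52622 in close stroma and 1037 to 1798 in far stroma, where SPINT2 alone gave 74.0% of the sum. Of these genes, 15 were tested and all 15 were higher in parenchyma than in far stroma. The sum of 10 adipocyte genes was 1930 to 3176 in parenchyma, 49399 to 185192 in close stroma and 220762 to 295567 in far stroma, and all 10 were lower in parenchyma than in far stroma. In bulk tissue, fewer cells of a type and less RNA per cell cannot be told apart. Regions were compared with limma on log2(value + 1) in 1 fit of all 11 samples, with p-values adjusted over the 14596 genes tested and calls made at an adjusted p under 0.05. Between parenchyma and far stroma, 50.1% of these genes were called and 24.0% were lower in parenchyma. A log2 difference of 1 is a doubling on this scale. For genes with few reads it can fall short of the ratio of pooled reads or exceed it. Levels are compared within a gene only, since no transcript lengths were used.

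SLC28A3 (ENSBTAG00000018280) encodes the concentrative transporter with the widest range of substrates, taking up purine and pyrimidine nucleosides alike. Parenchyma gave 2888, 1788, 1353 and 1389 normalised counts (heifers 1, 3, 4 and 5). Close stroma gave 748, 838 and 1301 (heifers 3, 4 and 5), and far stroma gave 2.94, 1.2, 0 and 0 (heifers 1, 3, 4 and 5). The regions did not overlap, and within every heifer parenchyma was the highest and far stroma the lowest. Groups also did not overlap for 45.5% of all genes tested between parenchyma and far stroma, 26.2% between parenchyma and close stroma and 23.3% between close and far stroma. The far stroma values rest on 4 reads in all, 3 from heifer 1 and 1 from heifer 3, against 9064 reads in parenchyma. A count of 0 allows up to 3.39 normalised counts in the far stroma of heifer 4 and up to 4.84 in that of heifer 5. Pooled over samples, SLC28A3 was 1600 times higher in parenchyma than in far stroma, with a 95% exact counting interval of 623 to 5860, and 813 times higher in close stroma than in far stroma (317 to 2990). These intervals cover counting error only.

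Parenchyma averaged 1854 ± 717 normalised counts of SLC28A3 (SD, n = 4), close stroma 962 ± 297 (n = 3) and far stroma 1.03 ± 1.39 (n = 4). On the log2(value + 1) scale the difference was 10.01 ± 0.42 (SE) between parenchyma and far stroma and 9.09 ± 0.46 between close and far stroma. With a pseudocount of 5 in place of 1 these differences were 8.22 and 7.31, since the far stroma values lie near 0. Parenchyma and close stroma were the neighbours in this order, with a log2 difference of 0.92 ± 0.46 (SE). With the heifer as a block the difference was 0.60. The 2 regions were nearest in heifer 5, where parenchyma held 1.07 times the close stroma level, against 1.61 times in heifer 4 and 2.39 times in heifer 3.

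**Figure D1:**
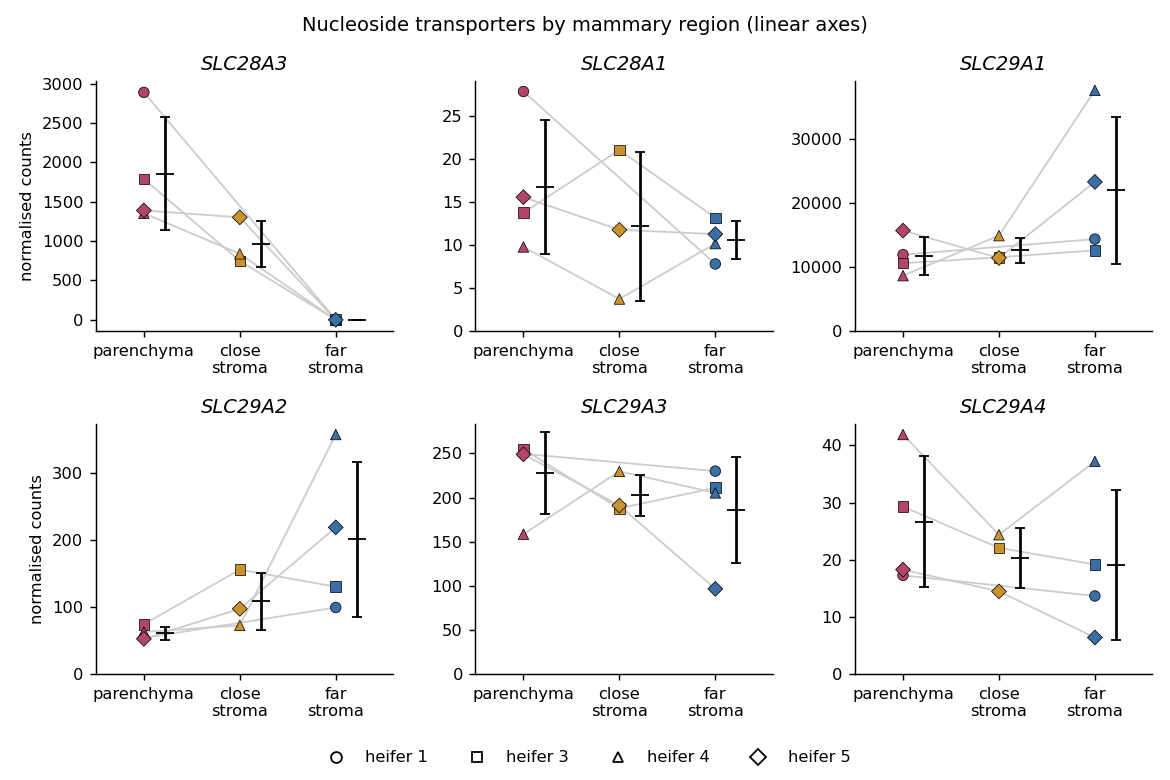
Normalised counts (linear axes) of the 6 nucleoside transporters in parenchyma, close stroma and far stroma, with 1 marker shape per heifer, grey lines joining samples of a heifer (heifer 1 has no close stroma), and a bar for the mean ± SD. SLC28A3 is at 1353 to 2888 in parenchyma and at 2.94 or less in far stroma, while the other members are present in all 3 regions.

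Relative to luminal genes, SLC28A3 stood at 62.5, 33.8, 25.4 and 22.3 counts per 1000 summed luminal counts in parenchyma (heifers 1, 3, 4 and 5). In close stroma it stood at 33.0, 15.9 and 37.4 per 1000 (heifers 3, 4 and 5), so these ranges overlap. In far stroma the same ratio was 2.83, 1.11, 0 and 0. There SPINT2 gave 74.0% of the luminal sum (mean 990 normalised counts, against 9.13 for KRT7). The far stroma ratio thus depends mostly on SPINT2 and on 4 reads of SLC28A3, and cannot be set against that of parenchyma as a level per epithelium. The luminal sum of parenchyma was 2.34, 1.01 and 1.79 times that of close stroma in heifers 3, 4 and 5. SLC28A3 and the luminal sum thus differed by about the same factor in heifer 3, but not in heifers 4 and 5. The luminal keratin KRT7 had 32 reads in far stroma and 27654 in parenchyma, so luminal transcripts were also scarce where SLC28A3 was near 0. What share of the SLC28A3 difference goes with the amount of epithelium was not tested.

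**Figure D2:**
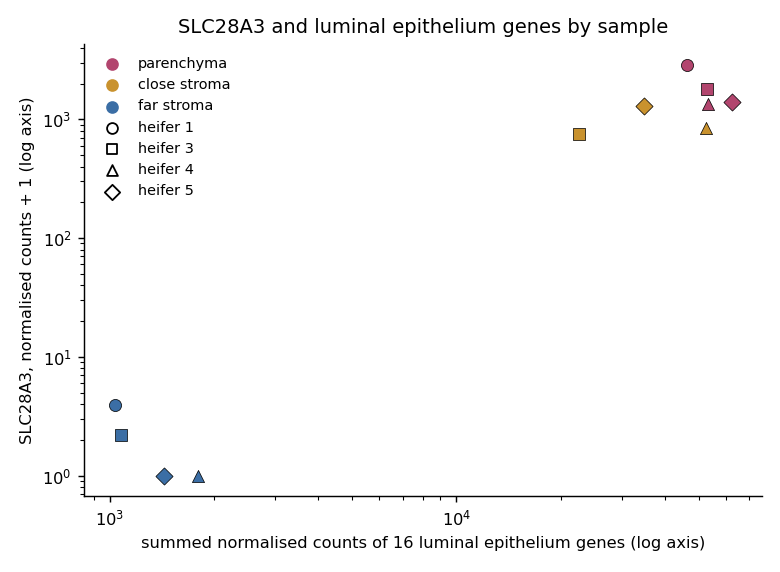
SLC28A3 (normalised counts + 1, log axis) against the summed normalised counts of 16 luminal epithelium genes (log axis), 1 point per sample, coloured by region and shaped by heifer. The far stroma samples lie apart at sums of 1037 to 1798, and close stroma reaches the sums of parenchyma in heifer 4 only (52622). SPINT2 gave 74.0% of the far stroma sum.

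The genes with profiles most like that of SLC28A3 were sought among 11465 others with a symbol and a mean of at least 50 in some region. Likeness was the root mean square difference of log2(value + 1) over the 11 samples, each gene centred on its own mean, and its median over all candidates was 4.68. The nearest was TFAP2C (0.77), a transcription factor of the AP-2 family, followed by RAB25 (0.82), a small GTPase of epithelial membrane traffic, and KRT7 (0.82). B4GALNT3 (0.83), a glycosyltransferase, and EHF (0.86), an epithelial transcription factor of the ETS family, came next. With heifers in the same order, TFAP2C was at 1367, 1192, 1112 and 1058 normalised counts in parenchyma, at 523, 879 and 761 in close stroma, and at 1.96, 0, 1.13 and 1.61 in far stroma. These 5 genes share with SLC28A3 the near absence in far stroma, while the excess of heifer 1 over the other heifers in parenchyma was larger in SLC28A3 than in TFAP2C. In close stroma the highest sample was that of heifer 5 for SLC28A3 and that of heifer 4 for TFAP2C. B4GALNT3 was lower in close stroma than SLC28A3 relative to parenchyma, averaging 2536 in parenchyma and 885 in close stroma. The profiles share libraries and the contrast between regions, so that many epithelial genes resemble each other in them.

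**Figure D3:**
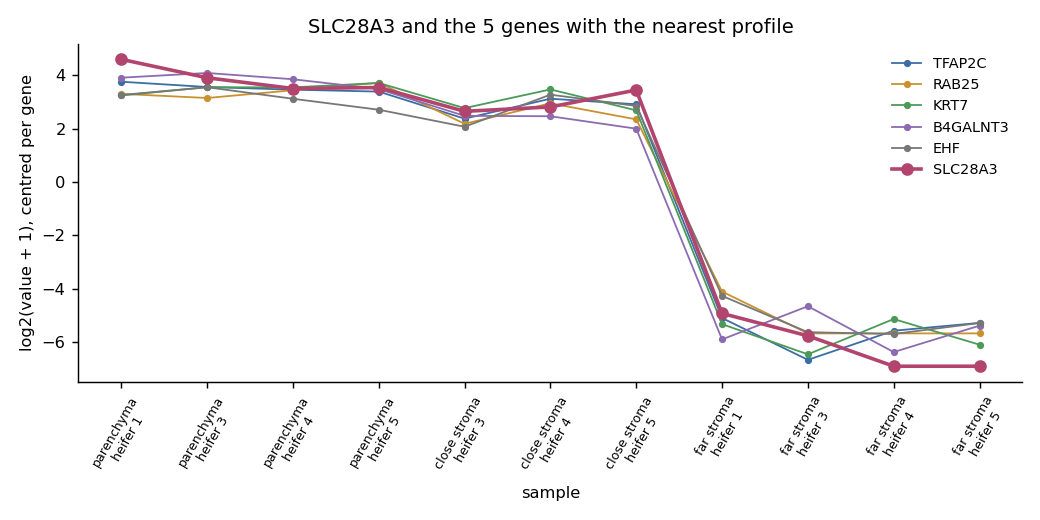
Log2(value + 1), centred per gene, of SLC28A3 (thick line) and the 5 genes with the nearest profile, over the 11 samples ordered by region. All 6 lines drop at far stroma, and SLC28A3 lies above the other 5 in the parenchyma of heifer 1 and the close stroma of heifer 5.

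SLC28A1 (ENSBTAG00000020250), which prefers pyrimidine nucleosides, was scarce in every region. With heifers in the order 1, 3, 4 and 5, it gave 27.9, 13.8, 9.81 and 15.6 normalised counts in parenchyma and 7.83, 13.2, 10.2 and 11.3 in far stroma, while close stroma of heifers 3, 4 and 5 held 21.1, 3.75 and 11.8. The 3 regions overlapped, and no sample held more than 37 reads. As in SLC28A3, the highest value was the parenchyma of heifer 1. The log2 difference between parenchyma and far stroma was 0.54 with a 95% interval of -0.51 to 1.59 (limma adjusted p = 0.377, higher in 3 of 4 heifers). A difference of up to about 3-fold therefore lies within the interval. The near absence of SLC28A3 from far stroma was thus not seen in SLC28A1, whose reads there numbered 35.

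SLC29A2 (ENSBTAG00000012024), an equilibrative transporter that also passes nucleobases, was the 1 member of the 5 tested that passed in parenchyma against far stroma, and it was lower in parenchyma. Heifers 1, 3, 4 and 5 had 54.3, 74.8, 63.3 and 53.1 normalised counts in parenchyma, against 99.8, 131, 358 and 219 in far stroma. The groups did not overlap, and parenchyma was the lower in 4 of 4 heifers. Close stroma, at 156, 73.1 and 97.8 in heifers 3, 4 and 5, lay across the gap and overlapped both groups. SLC29A2 fell by 1.54 ± 0.37 (SE) on the log2 scale in parenchyma relative to far stroma (limma adjusted p = 0.00373). The call held in all 21 alternatives, with adjusted p between 4.71e-05 and 0.0128. Of 14596 genes tested, 24.0% were lower in parenchyma than in far stroma and 50.1% differed in either direction, so that a count of 1 in 5 tested members does not exceed the background. With each library scaled to its total, 75.3% of called genes were higher in parenchyma, against 52.1% with the deposited scaling, and the median log2 difference over all genes moved by 0.42. That of SLC29A2 was then -1.12, and still passed.

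The spread of SLC29A2 within far stroma was wide, and the far stroma of heifers 4 and 5 stood above that of heifers 1 and 3. In parenchyma the 4 heifers lay within 53.1 to 74.8. The difference from far stroma within a heifer ran from 0.572 times in heifer 3 and 0.544 times in heifer 1 to 0.242 times in heifer 5 and 0.177 times in heifer 4. The summed adipocyte genes were 220762, 225072, 259233 and 295567 in the far stroma of heifers 1, 3, 4 and 5, and the summed blood endothelium genes 25673, 28012, 35714 and 37367, so both sums were also higher in heifers 4 and 5. So were the luminal sum (1037, 1081, 1798 and 1432) and the sum of 2 erythrocyte genes (15.7, 12.0, 54.2 and 33.9). Summed fibroblast genes (399933, 481638, 336010 and 221904) and T and NK cell genes (1078, 612, 532 and 364.5, in the same order) were lower in heifers 4 and 5. Sums of macrophage genes (21026, 12176, 27911 and 6721), basal and myoepithelial genes, and B and plasma cell genes did not separate these heifers. The part of these cell types in the SLC29A2 values was not tested.

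SLC29A1 (ENSBTAG00000015131), the widely expressed equilibrative transporter of the plasma membrane that moves adenosine, was abundant in every region. Heifers 1, 3, 4 and 5 had 11934, 10613, 8670 and 15697 normalised counts in parenchyma, against 14370, 12610, 37577 and 23289 in far stroma. Close stroma stood at 11527, 14907 and 11425 (heifers 3, 4 and 5). The regions overlapped, and the far stroma of heifers 4 and 5 stood above all other samples, as it did for SLC29A2. Parenchyma was below far stroma in 4 of 4 heifers, at 0.83, 0.842, 0.231 and 0.674 times in heifers 1, 3, 4 and 5. The log2 difference of -0.80 ± 0.32 did not pass (limma adjusted p = 0.0556, 95% interval -1.50 to -0.10). This value lies next to the threshold. It passed with edgeR (adjusted p = 0.0364 with TMM and 0.0378 with RLE scaling) and with DESeq2 (0.0123), and without the parenchyma of heifer 5 (0.0424) or the far stroma of heifer 1 (0.0357) or heifer 3 (0.0202). It did not pass with library-total scaling (0.283). Over 21 alternatives, adjusted p ran from 0.0123 to 0.283 and 6 passed.

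The profile nearest to SLC29A1 was that of ARPIN, with a root mean square difference of 0.18 against a median of 0.69 over all candidates, and that nearest to SLC29A2 was TMSB10 (0.26 against 0.91), an actin-binding thymosin. TMSB10 averaged 10746 in parenchyma, 17009 in close stroma and 30156 in far stroma. Its far stroma values of 20682, 21286, 37156 and 41499 in heifers 1, 3, 4 and 5 also separate heifers 4 and 5 from 1 and 3. The next nearest to SLC29A1 were PPDPF and MEX3B, both at 0.19, and to SLC29A2 CASTOR1 (0.27) and IRAK2 (0.28).

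SLC29A3 (ENSBTAG00000046357), an equilibrative transporter of lysosomes and other inner membranes, averaged 228 normalised counts in parenchyma, 203 in close stroma and 186 in far stroma. Heifers 1, 3, 4 and 5 had 249.6, 254, 159 and 249 normalised counts in parenchyma, against 230, 211, 205 and 96.8 in far stroma. Close stroma stood at 188, 229.7 and 191 (heifers 3, 4 and 5). The groups overlapped. In parenchyma 3 heifers lay within a few counts of each other and heifer 4 lay well below them. In far stroma heifer 5, the library with the fewest reads, was the low one. The log2 difference between parenchyma and far stroma was 0.34 with a 95% interval of -0.24 to 0.93 (limma adjusted p = 0.311, higher in 3 of 4 heifers), and it passed with library-total scaling (0.76, adjusted p = 0.0367), where the median of all genes had moved by 0.42. Without the far stroma of heifer 5 the difference was 0.06. The nearest profile was that of TNS3 (0.17 against a median of 0.57).

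SLC29A4 (ENSBTAG00000007772) carries monoamines such as serotonin as well as adenosine. Heifers 1, 3, 4 and 5 had 17.3, 29.3, 41.9 and 18.3 normalised counts in parenchyma, against 13.7, 19.2, 37.2 and 6.45 in far stroma. Close stroma stood at 22.1, 24.4 and 14.5 (heifers 3, 4 and 5). The groups overlapped, yet heifer 4 was the highest in each region. Parenchyma was above far stroma in 4 of 4 heifers and above close stroma in 3 of 3. Even so the log2 difference from far stroma, 0.61 with a 95% interval of -0.43 to 1.65, did not pass (limma adjusted p = 0.309). The values rest on 126 reads in parenchyma, 65 in close stroma and 67 in far stroma. Without the far stroma of heifer 5 the difference was 0.21, without that of heifer 4 it was 1.00, without the parenchyma of heifer 4 it was 0.37, and with library-total scaling it was 1.01. Its nearest profile was that of PLAUR (0.33 against a median of 0.80), the urokinase receptor, which also peaked in heifer 4.

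**Figure D4:**
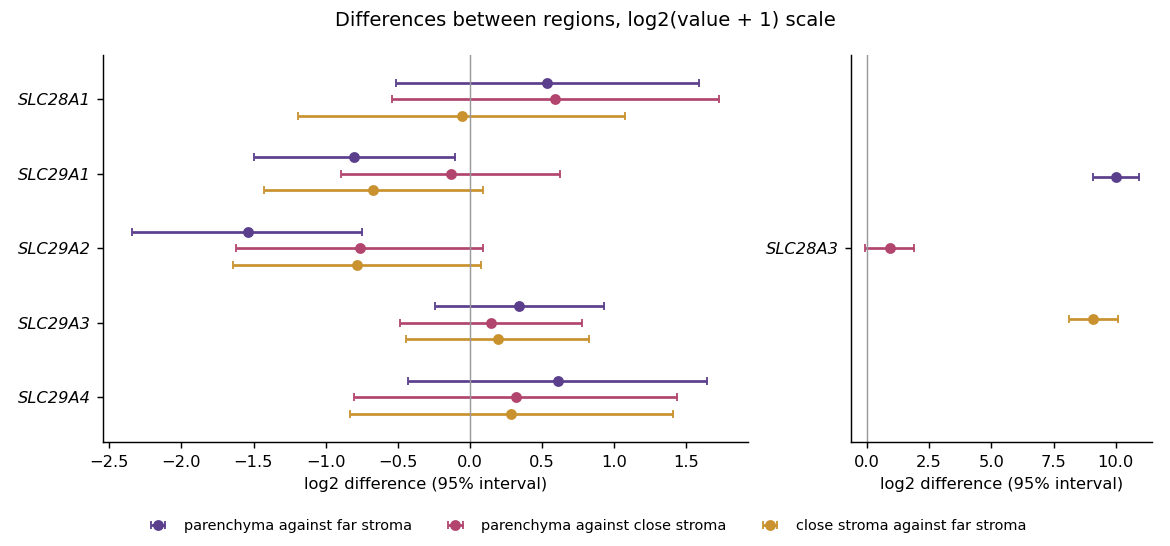
Log2 differences between regions on the log2(value + 1) scale with 95% intervals from the fit of all genes, for 5 members (left) and SLC28A3 on its own axis (right). Intervals of SLC29A2 and SLC29A1 lie below 0 for parenchyma against far stroma (-2.34 to -0.75 and -1.50 to -0.10, of which SLC29A2 passed after adjustment), and those of SLC28A1, SLC29A3 and SLC29A4 include 0 in each comparison.

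Close stroma was set against the other regions for the 5 members that could be tested. Between parenchyma and close stroma, 0 of 5 passed with limma, 0 had an unadjusted p under 0.05, and edgeR and DESeq2 also called 0, where 7.12% of all genes were called. The largest difference was that of SLC29A2, -0.76 with a 95% interval of -1.62 to 0.09 (limma adjusted p = 0.263, lower in 3 of 3 heifers). Between close and far stroma, 0 of 5 passed with limma and 0 had an unadjusted p under 0.05, where 17.0% of all genes were called. edgeR, DESeq2 and limma with the heifer as a block called 0 as well, with 0 (TMM), 2 (RLE), 2 (DESeq2) and 1 (block) at an unadjusted p under 0.05. SLC29A2 differed there by -0.78 (-1.64 to 0.08) and SLC29A1 by -0.67 (-1.43 to 0.09). Intervals of this width do not show that the regions are alike.

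Around the transporters, 10 lists of genes of nucleoside and nucleotide handling were followed, of which 93 genes were tested. Between parenchyma and far stroma 26 were higher and 16 lower, or 45.2%, beside 50.1% of all genes. The median log2 difference was 0.23, beside 0.06 over all genes. With library-total scaling 45 were higher and 11 lower, where 6368 of all 14646 genes tested were higher and 2093 lower. The same lists gave 3 higher and 4 lower between parenchyma and close stroma, 7 in all, or 7.53% beside 7.12% of all genes. These 7 became 13 with DESeq2, 2 without the close stroma of heifer 3, and 4 without the parenchyma of heifer 3 or 4. Calls over all genes, 1039 in the main fit, became 2061, 379, 589 and 589 in these settings. Between close and far stroma the lists gave 6 higher and 7 lower, or 13 of 93 beside 17.0% of all genes. These became 12 higher and 0 lower with library-total scaling, where 2806 of all genes were higher and 302 lower. Those 13 calls became 3 without the close stroma of heifer 4, 6 without that of heifer 5 and 20 without that of heifer 3. Without the far stroma of heifer 5 they became 7. Calls over all genes went from 2475 to 1194, 1323, 3632 and 1882 in the same order.

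Markers of several cell types differed between parenchyma and far stroma beside these genes. Higher in parenchyma were 8 of 9 basal and myoepithelial genes, all 10 T and NK cell genes and all 7 B and plasma cell genes. Lower were 9 of 10 blood endothelium genes, 7 of 10 fibroblast genes and 3 of 7 macrophage genes. Of all genes tested, 50.1% were called in this comparison and 24.0% were lower. The part of cell composition in the differences of nucleotide genes was not tested.

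Nucleosides that have entered a cell are trapped by kinases or broken down. Of 8 nucleoside kinases 3 were lower in parenchyma than in far stroma (median log2 -0.21). Of all genes tested in this comparison, 50.1% were called and 24.0% were lower, which is the background for each list from here on. With library-total scaling the background was 8461 of 14646 genes called, 6368 higher and 2093 lower. The mitochondrial deoxyguanosine kinase DGUOK had 312 ± 26.8 normalised counts in parenchyma, against 634 ± 158 in far stroma (SD, n = 4 each; log2 -0.99, limma adjusted p = 0.0012). TK1 (-0.71) and ADK (-0.63), which phosphorylate thymidine and adenosine, were the other two, and neither passed with library-total scaling, under which 3 kinases were higher and 1 lower. TK1 also missed the threshold without the parenchyma of heifer 3 (0.0686) or 5 (0.0618) or the far stroma of heifer 5 (0.0735), and ADK (adjusted p = 0.0496) with edgeR, with DESeq2, with no filter and without any 1 sample other than the parenchyma of heifer 1 (up to 0.131). Without the far stroma of heifer 4, 2 kinases were higher and 2 lower. Of 13 phosphorylases, deaminases and related enzymes 4 were lower and 1 higher (median -0.66). PNP, which splits purine nucleosides, averaged 2666 ± 385 in parenchyma and 6642 ± 2320 in far stroma (-1.25, adjusted p = 0.0011). DPYD, which degrades pyrimidine bases, differed by -1.22. The secreted adenosine deaminase ADA2 was higher (329 ± 48.2 against 93.9 ± 44.9, log2 1.95). With library-total scaling this list held 3 higher and 3 lower, and with the heifer as a block 2 higher and 5 lower. Without the far stroma of heifer 1 there were 2 higher and 4 lower, and without that of heifer 3 there were 2 and 5.

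Among the routes that make nucleotides, RRM2, the subunit of ribonucleotide reductase made by dividing cells, was higher in parenchyma (124 ± 59.5 against 23.2 ± 21.1, log2 2.80, limma adjusted p = 0.00309), as the 1 of 8 genes of base salvage and reduction that passed (median 0.27). De novo purine synthesis was higher for 2 of 11 genes, PFAS (1.11) and GMPS (0.51), and lower for IMPDH1 (-1.29), with a median of -0.02. De novo pyrimidine synthesis was higher for 2 of 7 and lower for 1 (median 0.23). CAD, which starts pyrimidine synthesis, averaged 579 ± 61.1 in parenchyma and 328 ± 51.4 in far stroma (0.83), CTPS1 differed by 1.21 and the kinase CMPK1 by -0.71. With the deposited scaling, 50.1% of all genes tested were called in this comparison, which none of these 3 lists exceeds. With library-total scaling the 3 lists had 5 of 8, 6 of 11 and 4 of 7 genes higher, where 6368 of all 14646 genes tested were higher. Without the far stroma of heifer 4 or 5, 2 genes of base salvage and reduction were higher, and without that of heifer 1 both this list and de novo purine synthesis gained 1 lower gene.

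Outside the cell, ecto-nucleotidases turn ATP into adenosine, and 6 of 14 were higher and 3 lower in parenchyma than in far stroma (median 0.54). With edgeR, or without the parenchyma of heifer 4, 4 were higher and 3 lower. NT5E, the ecto-enzyme that releases adenosine from AMP, had 258 ± 87.4 normalised counts in parenchyma, against 743 ± 31.6 in far stroma (log2 -1.59, limma adjusted p = 9.4e-05). ENPP1, which hydrolyses ATP, differed by -1.66, whereas its relative ENPP3 was higher at 82.5 ± 42.7 against 2.42 ± 2.8 (4.94). Of the 5 intracellular nucleotidases 4 were higher (median 0.80), among them NT5C2 (0.80), NT5C3A (0.86) and NT5C3B (1.05). Without the parenchyma of heifer 1 or 4, or the far stroma of heifer 1 or 5, 3 were higher. The count was also 3 with only heifers that had all 3 regions. Of all genes tested, 50.1% were called, and 3805 of 14596 were higher in parenchyma.

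All 3 adenosine receptors tested differed, 1 lower and 2 higher in parenchyma than in far stroma, beside 50.1% of all genes. ADORA1, which lowers cyclic AMP and restrains lipolysis in fat cells, lay at 15.4 to 59.5 normalised counts in parenchyma, 173 to 1019 in close stroma and 746 to 1173 in far stroma. It differed by -5.04 ± 0.51 between parenchyma and far stroma (limma adjusted p = 5.98e-06) and by -3.79 between parenchyma and close stroma. ADORA2A and ADORA2B, which raise cyclic AMP, were higher in parenchyma than in far stroma by 1.81 and 1.04. ADORA2A lay at 74.7 to 167 in parenchyma, 66.1 to 94.7 in close stroma and 25.8 to 41.8 in far stroma. The directions of the 3 receptors were the same with library-total scaling.

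Of 14 genes listed as receptors of nucleotides or for release of ATP, 5 were higher and 2 lower in parenchyma than in far stroma (median 0.52). Of all genes tested, 50.1% were called, which these counts do not exceed. With library-total scaling 7 were higher and 1 lower, and 3 were lower with the heifer as a block, with DESeq2, or without the parenchyma, close stroma or far stroma of heifer 3. P2RY6, a receptor for UDP, had 269 ± 68.6 normalised counts in parenchyma, against 16.3 ± 4.63 in far stroma (log2 3.96, limma adjusted p = 3.7e-07). P2RY10 differed by 2.71. It was listed by its name, but is a lymphocyte receptor for lysophospholipids and not for nucleotides. The channel P2RX6 lay at 0 to 3.66 in parenchyma and at 67.7 to 158 in far stroma (-5.45). Of 10 other carriers of nucleobases and nucleotides 3 were higher and 1 lower (median 0.28). SLC25A33, which carries pyrimidine nucleotides into mitochondria, was the lower one (83.1 ± 17.4 against 526 ± 184, -2.59), and the efflux pumps ABCC5 (1.36) and ABCC10 (0.96) were higher. A further carrier was lower with the heifer as a block or without the parenchyma of heifer 1.

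**Figure D5:**
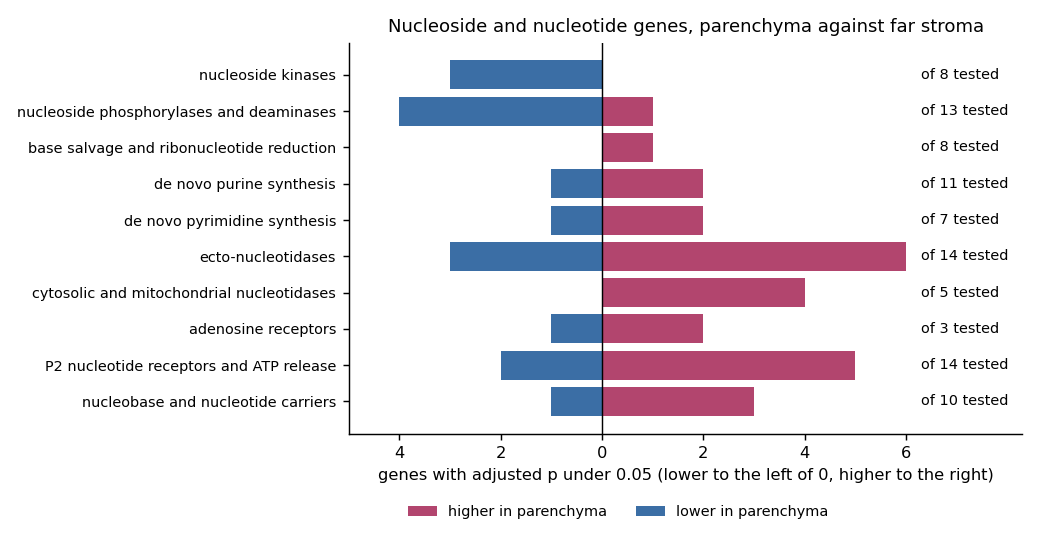
Number of genes with adjusted p under 0.05 in 10 lists of nucleoside and nucleotide genes, higher in parenchyma than in far stroma to the right of 0 and lower to the left, beside the number tested. The list of ecto-nucleotidases and related genes holds the most calls in this fit (6 higher and 3 lower of 14). With edgeR it holds 7 calls in all, as does the list of nucleotide receptors and ATP release. Nucleoside kinases have 3 lower of 8 in this fit. Of all genes tested, 50.1% were called in this comparison.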

How the data were processed

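Per the file headers, the deposited values are normalised counts per gene and sample. They are a signal that the authors made by dividing whole read counts by 1 size factor per sample. These steps (100% of values within 0.01 of whole reads in each sample) gave the reads back. Per the submitters' processing notes, cutadapt, STAR, HTSeq, DESeq2 and the build ARS-UCD1.2 were used. Versions, settings, strand and gene filters are not given in the sources used here. In RefSeq on ARS-UCD2.0, 0 of 6 members overlapped another gene.

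With limma 3.58.1 (R 4.3.3), 1 fit of 3 regions with a variance trend was made on log2(value + 1). It took the 14596 genes that averaged at least 10 in some region, which all 6 members did. Benjamini-Hochberg adjustment ran over all genes tested, and calls were made under 0.05. Samples of a heifer share an animal: their deviations from group means correlated at 0.117 to 0.383 (10 pairs). Pairs from different heifers gave -0.349 to 0.224 (30 pairs), so the ranges overlap. A fit with the heifer as a block was an alternative. Others were edgeR 4.0.16 and DESeq2 1.42.0 on recovered reads, library-total scaling, pseudocounts of 0.5 and 5, no filter or 30, leaving out each sample, and only heifers with all 3 regions. The tests were also run on simulated data, which had independent samples, no heifer effect and few changed genes. That run therefore cannot show how the tests behave with shared animals or with the scaling of these data. Genes were named by rule: all members, up to 3 called genes per list and comparison with the smallest p, and nearest profiles. The members and lists were chosen with earlier results of these data known.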

Additional observations from a re-analysis of the deposited data

Results flagged for a closer look

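A sample far from the 3 others of its region was sought with the 95% critical value of Dixon's test for 4 samples (0.829). Such a sample was found in 15 of 144 groups over 72 named genes. About 1 in 20 would be flagged if values were independent and normally spread. These groups share libraries, some genes were named for alike profiles, and the counts were not log-transformed. The 15 flags therefore cannot be read as an excess. Among the transporters SLC29A3 was flagged, at 159 normalised counts in the parenchyma of heifer 4, with the nearest other sample at 249. Among genes of nucleotide handling, the far stroma of heifer 4 was the low sample for DPYD (862) and the high one for NT5C3B (166), and the parenchyma of heifer 4 was the high one for NT5C3B (505). The far stroma of heifer 1 was the high one for NT5E (790), and the parenchyma of heifer 5 was the high one for ENTPD3 (56.8).

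Among marker genes and genes with a near profile, the parenchyma of heifer 5 was high for HBA (23.8), ARPIN (296) and PPDPF (5444), and that of heifer 3 was low for CIDEC (75.6) and high for GNA15 (173). The far stroma of heifer 1 was high for DPT (4296) and RAB25 (1.96, which is 2 reads) and low for PCDH12 (98.8), and that of heifer 4 was high for MEX3B (529).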

How the results depend on the processing

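The lower level of SLC29A2 in parenchyma than in far stroma held in all alternatives. Members other than SLC28A3 called in that comparison numbered 1, and 2 with edgeR under TMM or RLE scaling, DESeq2 or library-total scaling, and 1 to 2 when a sample was left out, the added gene being SLC29A1, or SLC29A3 with library-total scaling. With the heifer as a replicate block the count stayed at 1 (SLC29A2 adjusted p = 0.00501, SLC29A1 0.0552), and no call of a member changed. In both other comparisons the count was 0 in every alternative. Over all genes, those called between parenchyma and close stroma numbered 1039, and 2061 with DESeq2, and 379 to 1252 when a sample was left out (379 without the close stroma of heifer 3, 582 without that of heifer 5, 589 without the parenchyma of heifer 3 and 589 without that of heifer 4). Between close and far stroma they numbered 2475, and 1194 to 3632 when a sample was left out (1194 without the close stroma of heifer 4 and 1323 without that of heifer 5). The cause was not tested. Of genes called between close and far stroma, 64.6% were higher in close stroma, and 90.3% with library-total scaling, where the median of all genes shifted by 0.34. Directions that turned belonged to differences that were never called. For SLC28A1 between close and far stroma the log2 difference was -0.05, and 0.02 with the heifer block, 0.24 (TMM), 0.20 (RLE), 0.21 (DESeq2), 0.25 (library-total scaling), 0.01 (pseudocount 5) and -0.56 to 0.55 when a sample was left out. Leaving out a sample also turned SLC28A1 (0.59, range -0.01 to 1.10) and SLC29A1 (-0.28 to 0.01) between parenchyma and close stroma, and SLC29A3 (-0.09 to 0.32) and SLC29A4 (-0.11 to 0.68) between close and far stroma. With a filter at 30, SLC28A1 and SLC29A4 were not tested. SLC28A1 and SLC29A4 rest on at most 82 and 126 reads in a region, and the far stroma level of SLC28A3 on 4 reads. How counting error and spread between animals share in their errors was not tested.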
